A study of Mus musculus with 7 samples.

Results

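The genes described here are those of the cytosolic ribosomal proteins, taken as every probe whose gene name on the array begins with Rpl or Rps and a digit, or is Rplp0, Rplp1, Rplp2 or Rpsa. Names of the S6 kinases and of pseudogenes were left out. The rule used no measured value and found 191 probes for 86 gene names, of 55670 probes and 34792 gene names kept on the arrays. Of the 86 names, 77 are canonical ribosomal proteins (46 of the large and 31 of the small subunit, with the stalk proteins counted in the large and Rpsa in the small one), 8 are paralogues of a canonical protein, and Rps19bp1 encodes a binding partner of Rps19 and is no ribosomal protein.

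Total RNA of 7 mouse samples was read on single-colour arrays to ask how cardiac mesenchymal progenitors (CMPs), stromal cells cultured from adult C57BL/6 heart, compare when the tissue came from dead or from living animals. Postmortem CMPs came from tissue kept for 24 h at 4 °C (1 atrial and 1 ventricular array), and living CMPs from tissue of living animals (1 atrial and 1 ventricular array). All CMPs grew on collagen I in medium that held basic fibroblast growth factor at 40 ng/ml and 10% serum. Adult heart was commercial whole-heart RNA on 1 array, with no strain given in the labels, and fetal heart was C57BL/6 RNA of embryonic day 16.5 on 2 arrays, 1 wild type (WT) and 1 from the transgenic (Tg) line Tg(Myh6-EGFP)MG2, in which the Myh6 promoter drives EGFP in cardiomyocytes. Nothing in the labels says that arrays of a group are separate animals or cultures, so every p-value reflects the spread of these arrays alone. That spread comes from the WT and Tg fetal difference and from how the storage difference varied between atrial and ventricular CMPs. It may be technical, and genotype and chamber are mixed into it.

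Cytosolic ribosomes make nearly all proteins of the cell, and their small and large subunits hold ribosomal RNA and a fixed set of proteins, most of them encoded by a single active gene. Messenger RNAs of these proteins begin with a terminal oligopyrimidine (TOP) tract, a C followed by pyrimidines at the cap, through which mTORC1 and Larp1 set their translation. A few proteins have a paralogue that is made in some tissues only. Rpl3l, the paralogue of Rpl3, is known from heart and skeletal muscle, Rpl10l and Rpl39l are known chiefly from the testis, and Rps27l is a p53 target.

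Values are log2 processed signal minus the array's own 75th percentile, so a value of a probe can be compared between arrays but not with another probe. The 75th percentile itself ran from 7.98 on the adult array, the lowest, to 8.93 on the WT fetal array. Cultures and hearts lay in separate rows of 1 slide, so row and this contrast cannot be told apart. On the 3 heart arrays all 12 cardiomyocyte markers were well above background, against 1 to 4 of the 12 on the CMP arrays. Tnnt2 was so on every CMP array, at 3.76 and 2.46 in atrial and ventricular postmortem and 3.82 and -0.15 in living CMPs. Myh6, Actc1, Mb and Ttn were so on none of them. All 10 stromal markers were well above background on every array. In bulk RNA fewer cells of a type and less RNA per cell cannot be told apart. Of the 86 names, 83 had a probe well above background on all 7 arrays. The exceptions were the paralogues Rpl3l, Rpl39l and Rpl10l.

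Rpl3l and Rpl3 are shown by their probes, since the contrast between this pair rests on the probes telling them apart. Both sequences are those of the array, 5′ to 3′, and capitals mark the longest stretch shared by any probes of the pair, 6 bases. The Rpl3l probe lies at chr17:24872413-24872681 and the Rpl3 probe at chr15:79908489-79908772 (mm9). Each place is longer than the 60 bases of the probe, so the match is split by a gap in the genome.
Rpl3l probe: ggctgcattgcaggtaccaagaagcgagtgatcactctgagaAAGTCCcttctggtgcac
Rpl3 probe: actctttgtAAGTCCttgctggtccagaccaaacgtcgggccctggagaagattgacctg
Over the 8 pairs of paralogue and parent, the probes shared at most 8 bases in a row. This cannot show that a probe reads only its own gene, since no probe was compared with the transcript of the other gene. An unbroken run also leaves out likeness broken by single bases. In the Rpl3l and Rpl3 probes, actct before the capitals and ctggt after them lie at the same distance from the capitals. Whether either probe also reads the other gene was not tested.

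Rpl3l was high in adult heart and at background in the cultures. It read -6.29 and -6.67 on the atrial and ventricular postmortem CMP arrays and -6.19 and -6.13 on the living ones, none of them well above background, against 5.76 in adult heart. With the main processing it was at least 1171-fold higher in adult heart than in the CMPs, a bound of 10.19 on the log2 scale. The limma log2 difference of CMPs minus adult heart was -12.08 (SE 0.84, adjusted p = 0.00049 over all genes tested). Over 17 alternative settings that difference ran from -12.26 to -8.01, so the bound does not hold under every setting. Fetal heart gave -5.69 on the WT array, not well above background, and -3.55 on the Tg array, which was. So 1 of the 2 fetal arrays measured it, and adult heart was 9.32 higher on the log2 scale than that Tg array (adjusted p = 0.0108 in the fit without the WT array). Over both fetal arrays the fit gave 10.38 (SE 0.92, adjusted p = 0.0016), which takes the dim WT reading as measured, and with that reading set at its array's lowest signal well above background the difference was 9.97, and 7.67 by the fit after normexp background correction. CMPs and fetal heart were not compared by the test of this report, since neither side was well above background throughout, and without that filter the difference was -1.70 (SE 0.67, adjusted p = 0.105).

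Rpl3, the parent gene, whose protein sits in the large subunit, went the other way in the adult array. It read 8.15 and 8.10 in postmortem CMPs, 7.88 and 7.92 in living CMPs, 6.79 in adult heart, and 8.01 and 8.12 in WT and Tg fetal heart. Adult heart was the lowest of the 7 arrays, with no overlap with either of the other kinds of sample. This was not particular to Rpl3, since adult heart was the lowest array for 64 of the 77 canonical genes. Their median adult minus fetal difference was -0.50. The limma log2 difference of Rpl3 was -1.27 for adult minus fetal heart (SE 0.25, adjusted p = 0.0138). For CMPs minus adult heart it was 1.22 (SE 0.23, adjusted p = 0.0079). These comparisons share the single adult array. The second Rpl3 probe, the one printed above, read 6.35 in adult heart, against 7.57 and 7.50 in fetal heart and 7.45 to 7.81 in CMPs. Without any 1 of the 4 CMP arrays both calls were lost, with adjusted p of 0.0694 to 0.0706 for adult minus fetal heart and 0.0714 to 0.0845 for CMPs minus adult heart, at nearly the same differences.

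Markers of muscle differed between the arrays that Rpl3l separates. The 12 cardiomyocyte markers had a median of -5.86 to -4.86 in the CMPs, 9.41 in adult heart, 7.23 in WT and 8.06 in Tg fetal heart. Of 7 skeletal muscle markers, 6 were well above background on the WT fetal array, Myog at 1.82 and Myod1 at -0.91 among them, against 3 on the Tg fetal array and 1 on the adult array, where both were not. Rpl3l was not well above background on that WT fetal array. The part of these cell types in the Rpl3l difference was not tested.

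**Figure D1:**
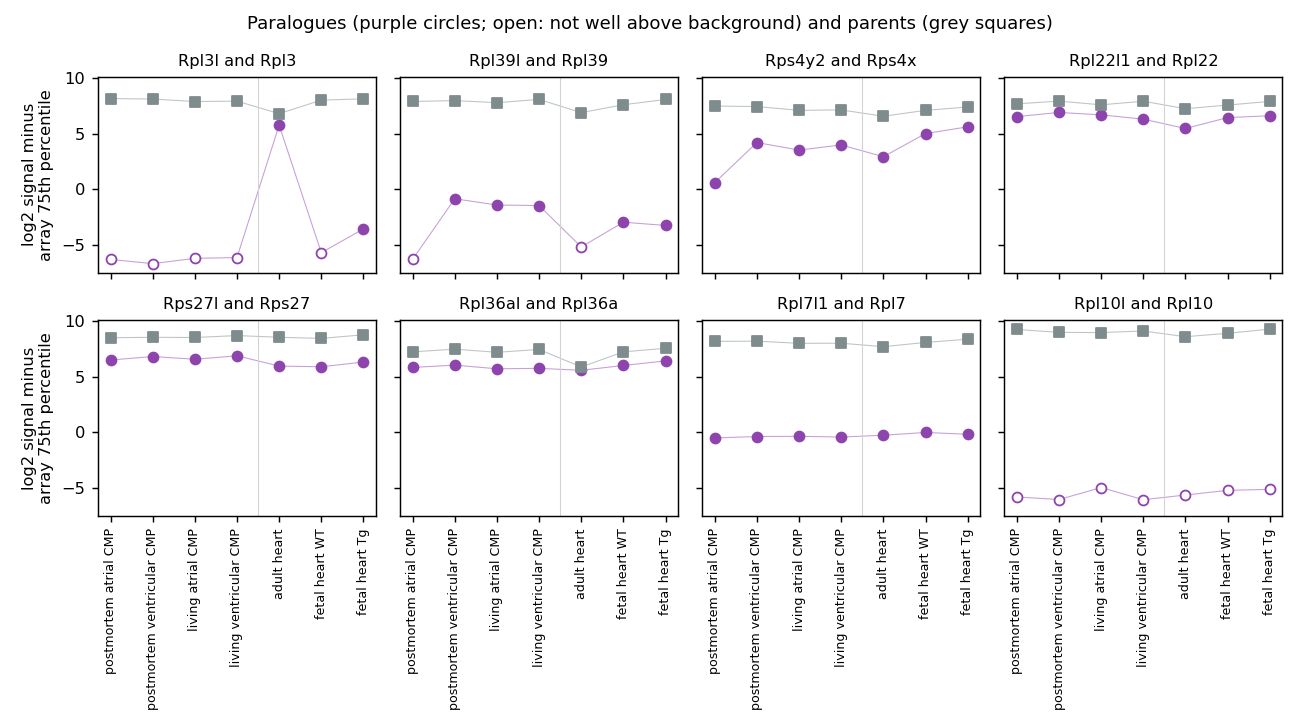
Each panel shows a paralogue (purple circles) and its parent (grey squares) on the 7 arrays, as log2 signal minus the array's 75th percentile; open circles are not well above background, and the height of one gene against the other has no meaning. Rpl3l is at 5.76 in adult heart and at -3.55 or lower elsewhere, and Rpl39l and Rps4y2 are lowest in postmortem atrial CMPs.

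Rpl39l and the gene named Rps4y2 had their lowest reading on a single culture. Rpl39l (chr16:10174657-10174716, mm9) read -6.28 in postmortem atrial CMPs, not well above background, and -0.85 in postmortem ventricular CMPs, against -1.41 and -1.45 in living atrial and ventricular CMPs. It was also not well above background in adult heart, at -5.17, and read -2.95 and -3.24 in WT and Tg fetal heart. The postmortem atrial reading lay below that of adult heart, with neither well above background, while the other 3 cultures lay above it. The mean of those 3 cultures, set apart after their values were seen, was at least 5.25-fold higher than adult heart. Over all 4 cultures the bound was 2.19-fold. Adult heart was at least 1.45-fold lower than fetal heart by the bound, and the fitted difference for adult minus fetal heart, -2.08 (SE 1.48), had an adjusted p = 0.312. That difference was called, at the same size, without any 1 of the CMP arrays. Rpl39, its parent, read 7.89, 7.96, 7.78 and 8.07 in the same order of cultures, so the low value on the postmortem atrial array was not shared by it.

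The probe named Rps4y2 carries an accession that RefSeq now assigns to Rps4l, a transcribed pseudogene (chr6:148304043-148304102, mm9). It read 0.60 in postmortem atrial and 4.20 in postmortem ventricular CMPs, 3.52 and 3.98 in living CMPs, 2.92 in adult heart, and 5.01 and 5.61 in fetal heart. Every culture lay below both fetal arrays. So did adult heart, which also lay below every culture except the postmortem atrial one. Adult minus fetal heart was -2.38 on the log2 scale, the lowest difference of the members tested, and was not called with all arrays. The CMPs fell by 2.23 on the log2 scale against fetal heart (SE 0.61, adjusted p = 0.0292), and the call was lost without either fetal array, with adjusted p of 0.111 and 0.181, without the trend (0.0553) and without the chamber term (0.103). The difference was -1.45 without the postmortem atrial or the living ventricular array and -3.02 without the postmortem ventricular or the living atrial one. Rps4x, the X-linked parent, had a log2 difference of 0.04 in that comparison (SE 0.18).

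Among the other paralogues, Rpl22l1 was lowest in adult heart and Rps27l was higher in the cultures than in fetal heart. Rpl22l1, paralogue of Rpl22, read 5.46 in adult heart, against 6.44 and 6.60 in fetal heart and 6.30 to 6.90 in CMPs. It fell by 1.06 in adult against fetal heart (SE 0.30, adjusted p = 0.0392), a call lost without either fetal array (adjusted p 0.0707 and 0.0859) and without the postmortem atrial or the living ventricular array (adjusted p 0.0508 and 0.0518), with quantile normalization (0.0546) and without the trend (0.077), while Rpl22 had a difference of -0.49 (SE 0.27, adjusted p = 0.202). Rps27l read 6.50 and 6.81 in postmortem CMPs and 6.57 and 6.88 in living CMPs, against 5.89 and 6.32 in fetal heart and 5.96 in adult heart. The cultures did not overlap with fetal heart and were higher by 0.59 (SE 0.19, adjusted p = 0.0471), a call lost without any 1 of the CMP arrays (adjusted p 0.202 to 0.209) or without the WT fetal array (adjusted p = 0.0861, with a difference of 0.37). It was also lost with centring on the median of probes well above background, without the filter, with the mean of probes, without the trend and without the chamber term (adjusted p 0.0501 to 0.0873). Against adult heart the cultures differed by 0.74 (SE 0.24, adjusted p = 0.0501), which was not called. Its parent Rps27 differed by -0.04 (SE 0.21).

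Rpl36al, which encodes nearly the same protein as the X-linked Rpl36a, had a log2 difference of -0.64 in adult against fetal heart (SE 0.26, adjusted p = 0.104). Rpl7l1 ranged over 0.49 on the log2 scale across the 7 arrays and passed no test. Neither of the 2 Rpl10l probes stood well above background on an array, while its parent Rpl10 was well above background on all 7.

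The 77 canonical genes had a narrow range. Their range over the 7 arrays had a median of 0.71 on the log2 scale (0.33 to 1.92). Over all 16030 genes well above background on 7 arrays, of every level, the median range was 1.48. The canonical genes are read by bright probes, and their range was not compared with that of genes of like level. The median level of the 77 genes was 8.17 and 8.22 in postmortem CMPs, 8.00 and 8.28 in living CMPs, 7.68 in adult heart, and 8.09 and 8.40 in WT and Tg fetal heart. Adult heart was the lowest array for 64 of the 77 genes, living atrial CMPs for 7 and WT fetal heart for 6. All 77 genes were lower in WT than in Tg fetal heart, by a median of -0.36 (-0.60 to -0.08). This is a difference between 2 arrays with no replicate of either genotype, and the fit counts it as spread.

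**Figure D2:**
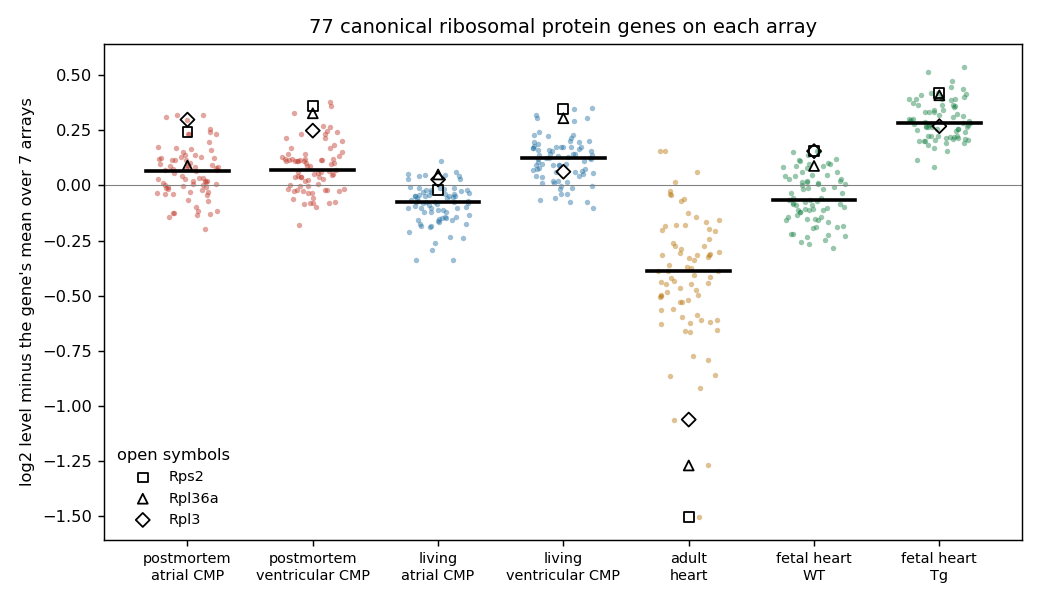
Points are the 77 canonical genes on each array, as the log2 level minus the gene's own mean over the 7 arrays. Bars are medians, and open symbols mark Rps2 (its brighter probe), Rpl36a and Rpl3. Adult heart has the lowest bar and the widest spread, and the fetal arrays lie apart from each other with Tg above WT.

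In adult against fetal heart the direction was shared and the calls were few. Of 85 ribosomal protein names tested, 82 had a negative difference, 9 were called lower and 1, Rpl3l, higher, with a threshold of 0.05 on the adjusted p of limma. Over all 20946 genes tested 17.2% were called lower and 19.2% higher, so the 10.6% of members called lower lie below the background. The median difference was -0.50 for the members and 0.12 for all genes. The adult array lay below both fetal arrays for 74 of the 85 names (87.1%), as it did for 40.7% of all genes tested. The count of calls moved with single arrays and was 5 or 6 without any 1 of the CMP arrays, 32 without the WT and 13 without the Tg fetal array. Other markers differed between the same arrays: all 9 proliferation genes were called lower in adult than in fetal heart (median -6.03), and 6 of 8 leukocyte markers were called higher (median 1.85). Their part in the ribosomal protein differences was not tested.

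The canonical genes called lower in adult heart came from both subunits. They were 5 of 31 in the small subunit, with a median difference of -0.49 over all 31, and 3 of 46 in the large subunit, with a median of -0.51. Rpl36a, a large subunit protein, read 5.88 in adult heart, against 7.23 and 7.55 in fetal heart and 7.19 to 7.47 in CMPs. It fell by 1.52 (SE 0.26, adjusted p = 0.00905), to 0.349 times the fetal level. The 3 probes of Rpl36a gave adult minus fetal differences of -1.52, -1.50 and -1.18, all below 0. Rps26 and Rps19 fell by 1.18 (SE 0.28, adjusted p = 0.0258) and 0.90 (SE 0.23, adjusted p = 0.029) by limma. Rps26 read 7.23 in adult heart and 8.27 and 8.55 in fetal heart, and its call was lost without any 1 of the CMP arrays (adjusted p 0.117 to 0.123). Rps18, Rps7 and Rpl5, the last a partner of the 5S ribosomal RNA, fell by 0.95, 0.83 and 0.82. For Rps19, Rps18, Rps7 and Rpl5 no call is shown to hold without single arrays. The calls counted without any 1 of the CMP arrays include Rpl39l, which was not called with all arrays.

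Rps2 had the most negative canonical difference, and its probes disagreed. The brighter probe, at chr17:42864841-42864900 (mm9), read 6.47 in adult heart, against 8.14 and 8.40 in fetal heart and 7.96 to 8.34 in CMPs, a fall of 1.79 in adult against fetal heart (SE 0.27, adjusted p = 0.00679). The other probe, at chr17:24857583-24857642, read 7.55 in adult heart, against 7.73 and 7.72 in fetal heart, a difference of -0.18. The probes lie 18.0 Mb apart. The other probe lies near the Rpl3l probe (chr17:24872413-24872681), as the annotated start of Rps2 lies near that of Rpl3l (chr17:24720048-24720077 and chr17:24727811-24727840, GRCm38.p6). By these places the other probe is at the Rps2 gene and the brighter one, which represents Rps2 here, is elsewhere. Which of them reads the Rps2 transcript was not tested.

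At the other end, Rps24 and Rpl36 had differences of 0.09 and 0.01 in adult minus fetal heart, and Rps27 and Rpl7a of -0.06 and -0.07. Rps24 read 8.73 in adult heart, between 8.41 in WT and 8.88 in Tg fetal heart. The stalk genes, whose proteins recruit the elongation factors, had differences of -0.22 for Rplp0, -0.61 for Rplp1 and -0.30 for Rplp2, and none was called. Rpsa, also known as the laminin receptor, had -0.07. These values are those of each gene's brightest probe, and other probes of some of these genes fell further. The differences ran from -1.94 to -0.07 over 4 probes of Rpsa and from -0.63 to -0.07 over 4 of Rpl7a. They ran from -0.54 to -0.22 over 3 probes of Rplp0 and from -0.27 to 0.11 over 4 of Rps24. The size differed between the fetal arrays: the median over members was -0.68 against the Tg array alone and -0.34 against the WT array alone.

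**Figure D3:**
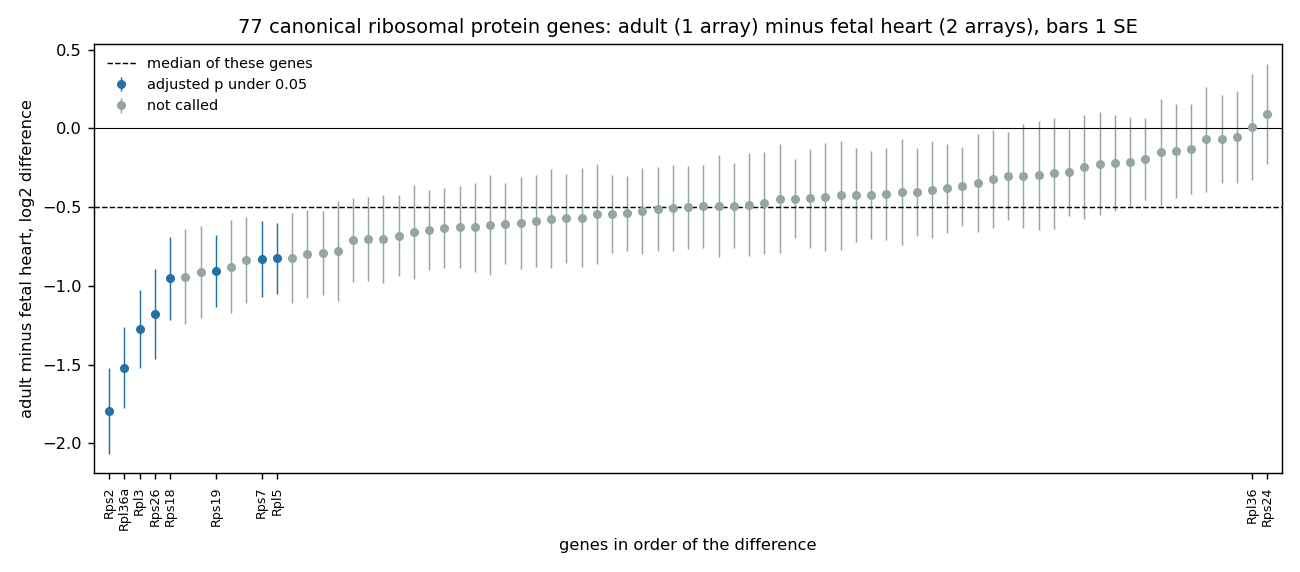
Each point is the log2 difference of adult heart (1 array) minus fetal heart (2 arrays) for a canonical gene, ordered by size, with bars of 1 SE; blue points have an adjusted p under 0.05 and the dashed line is the median of all 77 genes, -0.50. The called genes and the 2 that do not lie below 0, Rps24 and Rpl36, are named on the axis.

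Probes of 1 gene were read side by side because many ribosomal protein genes have processed copies elsewhere in the genome. Of 57 names with at least 2 probes well above background on all arrays, 53 had every probe lower in adult than in fetal heart. Dim probes showed the larger differences. The 21 probes with a mean level of 5 or less had a median adult minus fetal difference of -1.94, and 15 of them were below -1, against a median of -0.51 for the 162 brighter probes, of which 10 were below -1. For 13 of the 57 names the probes of a gene differed by more than 1 on the log2 scale. Of the 191 probes, 68 share at least 25 bases with a probe of another gene name, and none with a probe of another gene of this set.

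**Figure D4:**
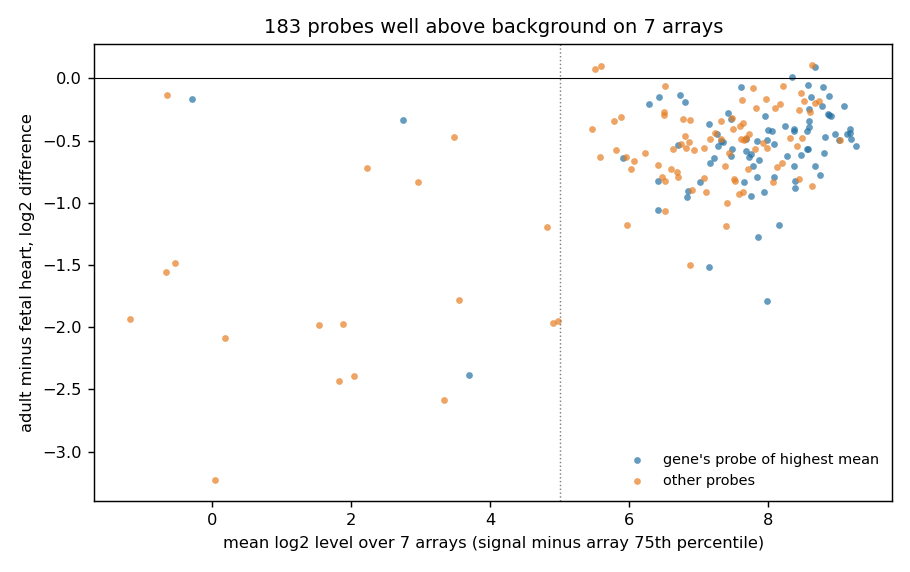
Points are the 183 probes well above background on 7 arrays, with the mean log2 level on the horizontal axis and the adult minus fetal heart log2 difference on the vertical axis; blue marks the probe that represents its gene, orange the others, and the dotted line a level of 5. The 21 probes at or left of the line have a median of -1.94, while the 162 to its right centre on -0.51.

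The CMPs lay above adult heart in most members. Of 84 names tested, 13 were called higher and 1, Rpl3l, lower, where 23.3% and 25.4% of all 20278 genes were called, and the median difference of CMPs minus adult heart was 0.42, against -0.05 for all genes. All 4 cultures lay above the adult array for 69 of the 84 names (82.1%), as for 39.4% of all genes. Besides Rpl3, the largest were Rps2 by its brighter probe (1.73, SE 0.25, adjusted p = 0.00339, against 0.04 for its other probe), Rpl36a (1.46, SE 0.23, adjusted p = 0.00476), Rpl22l1 (1.14, SE 0.27, adjusted p = 0.0177) and Rps19 (1.05, SE 0.21, adjusted p = 0.00946). Rps19 read 7.10 and 7.22 in postmortem CMPs and 6.78 and 7.04 in living CMPs, against 5.98 in adult heart. The Rpl22l1 call was lost without the postmortem ventricular or the living atrial array (adjusted p 0.0722 and 0.072), and the Rps19 call without any 1 of the CMP arrays (adjusted p 0.0556 to 0.0773). Over all members, 3 to 6 were called without any 1 of the CMP arrays and 35 without either fetal array. The lowest canonical differences were those of Rps15 (-0.34, SE 0.26) and Rpl36 (-0.27, SE 0.31). The adult array enters this comparison and the one with fetal heart, so they are not independent.

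Against fetal heart the cultures showed no common direction that held. Of 84 names tested, Rps27l was called higher and Rps4y2 and Rps19bp1 lower, where 22.3% and 25.3% of all 20052 genes were called, and none of the 77 canonical genes was called by limma (also none at an unadjusted p under 0.05, which 11001 of all genes had). The median difference was -0.07, close to the -0.03 of all genes. It was 0.09 against the WT fetal array alone, -0.24 against the Tg array alone, and 0.08 with quantile normalization, so its sign depends on these choices. The mean of the 4 cultures lay between the WT and the Tg fetal values for 56 of the 77 genes. Rps19bp1 read 2.51 to 2.57 in the cultures, against a mean of 3.14 over the fetal arrays, which both lay above every culture, and fell by 0.61 (SE 0.14, adjusted p = 0.0162), a call lost without the postmortem ventricular, the living atrial or the Tg fetal array (adjusted p 0.0577 to 0.0588). Without the WT fetal array 7 members were called, and 1 without the Tg fetal, the postmortem ventricular or the living atrial array. Rps15 had the lowest canonical difference, -0.47 (SE 0.20, adjusted p = 0.110), with all 4 cultures below both fetal arrays, and Rplp1 the highest, 0.17 (SE 0.22).

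No ribosomal protein was called between postmortem and living cultures. In postmortem against living CMPs 0 of 84 names passed limma's adjusted threshold and 0 had an unadjusted p under 0.05, where 0.105% of all 19011 genes were called and 2084 had such an unadjusted p. The median difference was 0.04, against 0.01 for all genes. Rpl21, a large subunit protein, had the highest difference, reading 7.02 and 6.93 in postmortem CMPs and 6.41 and 6.62 in living CMPs (0.46, SE 0.19, adjusted p = 0.472). Rps4x came next, at 7.48 and 7.43 in postmortem CMPs against 7.09 and 7.13 in living CMPs (0.34, SE 0.21, adjusted p = 0.617). For both the groups did not overlap, which held for 19 of the 84 names upward (22.6%) and 24.5% of all genes. Rpsa had the lowest canonical difference (-0.18, SE 0.27), and Rpl39l and Rps4y2 the lowest of all (-2.13 and -1.35), with adjusted p of 0.596 and 0.564. Without either atrial array they were 0.61 and 0.22, positive and not called. Without either ventricular array both were called, in fits that leave 1 array on a side, assumed to vary like the other groups.

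Within each chamber the canonical genes gave small medians of opposite sign. Postmortem minus living was -0.05 in the ventricular pair (-0.32 to 0.31) and 0.14 in the atrial pair (-0.10 to 0.61), where the living atrial array was the lowest of the cultures. The test of this difference between chambers called 2 of 84 members, Rpl39l and Rps4y2, where 2.31% of all genes were called, and no canonical gene. The share of members, 2.38%, is that of the background. Rpl39l was 0.61 on the log2 scale for postmortem minus living CMPs between the ventricular arrays. Between the atrial arrays the postmortem CMPs were lower by at least 7.88-fold, a bound, since their array did not read it well above background. Rps4y2 was 0.22 between the ventricular and -2.92 between the atrial arrays. On the same postmortem atrial array the 7 endothelial markers had a median of -3.23, against -0.47 in postmortem ventricular and -0.27 and -2.40 in living atrial and ventricular CMPs, and 6 of 7 were well above background there. For 6 of the 7 markers postmortem minus living was higher in the ventricular than in the atrial pair, with a median of 4.01 over all 7. The part of these markers in the Rpl39l and Rps4y2 differences was not tested.

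Between chambers no member was called either. Of 84 names 0 passed limma's adjusted threshold and 1, Rps4y2, had an unadjusted p under 0.05, where 0.0106% of all 18910 genes were called and 1557 had such an unadjusted p. The median of ventricular minus atrial CMPs was 0.11, against 0.04 for all genes, and 73 of the 84 were positive. Without either living array Rpl39l and Rps4y2 were called, again in fits that leave 1 array on a side. Both ventricular cultures lay above both atrial ones for 42 of the 84 names (50%), as for 22.1% of all genes. The canonical median was 0.02 between the postmortem and 0.20 between the living arrays. Rps3 and Rpl27a had the largest canonical differences, 0.29 and 0.28 (SE 0.20 and 0.22), and Rps27l had 0.31 (SE 0.22).

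The start of the transcript was looked at because the TOP tract is the feature that sets these messengers apart. The search was for a C followed by at least 4 pyrimidines, on the gene's strand, starting within 5 bases of the start annotated by RefSeq (GRCm38.p6). It was found for 29 of the 64 member names in the promoter table (45.3%), for 17 of 67 mitochondrial ribosomal protein genes (25.4%), and for 21.2% of all 27025 symbols. The members that hold it had a median adult minus fetal difference of -0.59, and those without it -0.42. Of the 10 members called between adult and fetal heart, 9 have a window in the table and 4 hold the tract. These 4 are printed from 15 bases before to 15 bases into the transcript, 5′ to 3′ on the gene's strand, with the tract in capitals, followed by Rpl3l at the upstream one of its annotated starts, where no tract was found.
Rps18, chr17:33955651-33955680, minus strand: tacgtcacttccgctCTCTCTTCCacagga
Rps26, chr10:128626492-128626521, minus strand: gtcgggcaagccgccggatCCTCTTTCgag
Rpl22l1, chr3:28805493-28805522, plus strand: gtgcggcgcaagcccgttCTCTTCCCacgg
Rps2, chr17:24720048-24720077, plus strand: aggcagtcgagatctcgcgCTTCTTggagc
Rpl3l, chr17:24727811-24727840, plus strand: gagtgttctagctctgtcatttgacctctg
A match is a description of these letters, and no match says only that they are not in the window.

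Other genes of translation were read from lists of their own. Fau and Gnb2l1 (Rack1), which encode ribosomal proteins under names that the rule misses, had adult minus fetal differences of -0.27 and -0.42, and neither was called. Of 17 translation factors and other genes known for TOP tracts, 6 were called lower in adult than in fetal heart and 8 higher in CMPs than in adult heart, with medians of -0.30 and 0.55, where 17.2% and 23.3% of all genes were called. The poly(A)-binding protein gene Pabpc1 (-1.93, SE 0.22, adjusted p = 0.00276 for adult minus fetal heart), the histone chaperone gene Nap1l1 (-1.86) and the elongation factor gene Eef1a1 were the lowest. Eef1a1 and Eef1a2 encode isoforms of elongation factor 1 alpha, and Eef1a2 is known from muscle, heart and neurons. Eef1a1 read 6.40 in adult heart, against 7.81 and 8.32 in fetal heart, and fell by 1.66 (SE 0.31, adjusted p = 0.0117). Eef1a2 read 5.18 in adult heart, against 0.85 and 1.96 in fetal heart, and rose by 3.78 (SE 0.70, adjusted p = 0.0119), with adjusted p = 0.0531 without the WT fetal array. It read -3.88 to -1.56 in the cultures, 8.01 below adult heart (adjusted p = 0.00066).

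Ribosome assembly factors of the nucleolus were set apart from the proteins they assemble. Of 32 tested, 22 were called lower in CMPs than in fetal heart and 0 higher, with a median difference of -0.81, where 25.3% of all genes were called lower and 22.3% higher. Fbl, the methyltransferase fibrillarin, fell by 1.85 (SE 0.14, adjusted p = 0.00041). In adult against fetal heart 14 of 32 were called lower and 0 higher (median -0.81; all genes 17.2% and 19.2%), with Nop58, Npm1 and Nop56 at -1.91, -1.84 and -1.83. In CMPs against adult heart 3 were called in each direction, fewer than the 23.3% higher and 25.4% lower of all genes. Among regulators, Myc fell by 2.68 in adult against fetal heart (SE 0.40, adjusted p = 0.0066) and Mycn by 3.17 (SE 0.75, adjusted p = 0.0247), and 2 of the 11 genes of that list were called in all. Of 12 genes of RNA polymerase I and its factors, 3 were called lower in adult against fetal heart, Polr1b and Taf1d the lowest at -1.89 and -1.53. Against the 17.2% of all genes called lower, the counts of these last 2 lists lie near the background.

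Mitochondrial ribosomal proteins, the separate set that serves the mitochondrial genome, were called in the other direction than the cytosolic ones in adult heart. Of 76 genes 31 were called higher in adult than in fetal heart and 0 lower (median 0.66; all genes 19.2% and 17.2%), with Mrpl9, Mrps18a and Mrps26 at 1.78, 1.76 and 1.72. In CMPs 66 of 76 were called lower than in adult heart (median -1.53) and 52 of 76 lower than in fetal heart (median -0.85), and 0 were called higher, where 25.4% and 25.3% of all genes were called lower. Mrpl42 read 1.95 on average in CMPs and 5.17 in adult heart, a fall of 3.22 (SE 0.30, adjusted p = 0.00093). The 9 proliferation genes on the same arrays had medians of -0.61 in adult heart, 4.71 and 4.76 in fetal heart, and 1.89 to 2.97 in CMPs. Their part in these list differences was not tested.

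**Figure D5:**
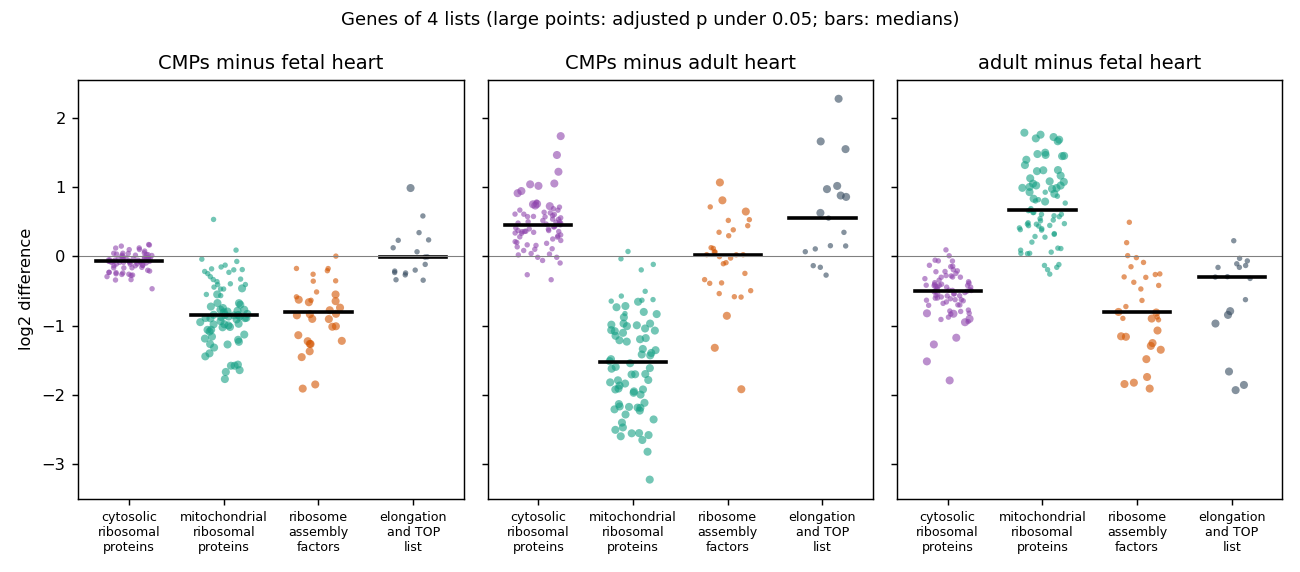
Points are genes of 4 lists in 3 comparisons, with the log2 difference on the vertical axis, large points for an adjusted p under 0.05 and bars for medians. In adult minus fetal heart the cytosolic ribosomal proteins centre on -0.50 and the mitochondrial ones on 0.66.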

How the data were processed

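For each array the authors deposited a scanner table, made with Agilent Feature Extraction, whose release is 10.7.3.1 per the file headers and 9.5.3 per the submitters' processing notes. Its processed signal is an intensity on a linear scale, background-subtracted and detrended per the file headers. A second deposited table holds log2 values. To within 0.001, 100% of them equal the scanner's log2 signal less an offset per array. No spot was saturated, and each array had 46.5% to 52.5% of its probes well above background. The number of arrays limits the precision.

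Spots of a probe were averaged, 11 probes with outlier flags were left out, and each array's 75th percentile was subtracted from the log2 processed signal. Of several probes of a gene name the one with the highest mean was used, and it was tested if all arrays of either side held that probe well above background. All 7 arrays entered 1 limma fit (3.58.1, R 4.3.3; lmFit, eBayes with trend) of postmortem CMPs, living CMPs, adult heart, fetal heart and chamber, with 2 residual degrees of freedom, so the single adult array is assumed to vary like the others. These come from the difference of the WT and Tg fetal arrays and from the difference between chambers in the response to storage. The test of chamber against storage has 1, from the fetal pair. Tests are two-sided, with Benjamini-Hochberg adjustment over all genes tested. For a side not well above background on any array, the bright side's mean was set, array by array, against the array's lowest signal well above background or, if higher, the dim signal itself. The fit was tested on simulated data. A log2 change of 1 was recovered in 1% of the changed genes for adult against fetal heart, 6% for CMPs against adult heart, 9% for postmortem against living CMPs and 21% for CMPs against fetal heart. For a change of 2 these shares were 40%, 60%, 72% and 75%. Most true differences of 1 or less would thus not be called. Alternatives covered scaling, background correction, the filter, the choice of probe, the model terms and leaving out arrays.

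Of 86 member names 78 matched RefSeq by accession. Names are those of the array. Genes named are the 5 largest differences in each direction and the called members where 10 or fewer were called. All paralogues and parents, the stalk genes, Rpsa and Rps19bp1, and up to 3 per direction from other lists are named too. Tnnt2, Myh6, Actc1, Mb, Ttn, Myog and Myod1 were chosen after their values were seen. Members and lists were chosen with earlier results of these data known.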

Additional observations from a re-analysis of the deposited data

Results flagged for a closer look

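Rpl39l is listed for the difference between chambers in its response to storage. The postmortem minus living difference was 5.48 higher on the log2 scale in the ventricular than in the atrial pair (SE 1.04, adjusted p = 2.5e-05 by limma over 19011 genes). Its lowest value was on the postmortem atrial array, where the probe was not well above background, so the difference is not measured on both sides. The call was lost with normexp (2.22, adjusted p = 0.275) and with quantile normalization (5.46, adjusted p = 0.141).

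Rps4y2 (Rps4l in RefSeq) is listed for the same reason, with a value of 3.14 (SE 0.55, adjusted p = 2.48e-06), and its call was lost with quantile normalization (3.21, adjusted p = 0.141). Its probe was well above background on all 7 arrays, and its lowest value was on the same array. In both tests the fetal pair gives the only residual degree of freedom, and the cause was not tested. No group has 4 arrays, so no array was tested for standing apart within its group.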

How the results depend on the processing

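In CMPs against adult heart the 14 called members became 66 with quantile normalization, 47 with normexp, 34 with each probe tested, 9 without the trend and 3 to 35 without 1 array. The median of 0.42 became 0.66 with quantile normalization, 0.24 with centring on the median of probes well above background and 0.58 with normexp, and 0.38 to 0.48 without 1 array. In adult against fetal heart the 10 became 59, 46 and 34 under the first 3 of these counts, 24 with the mean of probes, 5 without the trend, 19 without the chamber term and 5 to 32 without 1 array, and the median of -0.50 became -0.64 with normexp and -0.68 to -0.34 without 1 array. In CMPs against fetal heart the 3 became 9 with quantile normalization (6 higher and 3 lower, against 1 and 2), 5 with the mean of probes (0 and 5), 10 with each probe (1 and 9), 1 without the trend or the chamber term, and 1 to 7 without 1 array, and the median of -0.07 became 0.0774 with quantile normalization, -0.22 with centring on the median and -0.24 to 0.0947 without 1 array. Centring on the median moved the median of all genes to -0.23 in CMPs against adult heart and -0.18 against fetal heart. Between chambers in the response to storage the 2 became 0 with quantile normalization and 1 with normexp or with probes well above background on all arrays, and the median of -0.16 became 0.049 with quantile normalization. Postmortem against living, and ventricular against atrial CMPs, had 0 to 2 called without 1 array, with medians of -0.04 to 0.12 and 0.02 to 0.20. Signs turned for Rpl3 in CMPs against fetal heart (0.10 with quantile normalization, 0.000328 with the mean of probes, -0.11 to 0.00348 without 1 array), for Rpl39l and Rps4y2 in postmortem against living CMPs (-4.87 to 0.61 and -2.92 to 0.22 without 1 array), and for Rpl39l in ventricular against atrial CMPs (-0.0458 to 5.44 without 1 array). The cause was not tested. No paired analysis was possible because the labels give no replicate numbers, and the chamber is already a term of the fit. With 1 adult and 2 fetal arrays, a p that misses the threshold does not show that levels were alike, and probes not well above background give only a bound.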
